A study of Mus musculus with 12 samples.

Results

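The genes described here encode the collagens of the extracellular matrix, the proteins that fold, bind and crosslink them, other matrix glycoproteins, and 3 proteins that mark the mesenchymal cells that make matrix. They are 36 genes chosen by symbol, and 35 of them were measured, out of 12393 genes with a probe set on the array. Fbn1 is not analysed here. Each probe set combines several short probes, and a gene was read only from probe sets annotated with its symbol alone. A gene was represented by the probe set with the highest mean over the 12 arrays where it had several, as 24 of the 35 did. The deposited intensity of a probe set has no absolute unit, so levels are compared between arrays for one gene and not between genes.

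The RNA came from mucosa scraped off the fundus, the acid-secreting part of the mouse stomach, with 3 arrays in each of 4 groups. The groups were gastrin knockout mice infused with gastrin for 1 week, mice lacking both gastrin and cholecystokinin (CCK), gastrin knockout mice infused with saline for 1 week, and wild-type mice. The labels call the saline-infused mice males of 2 months, give no age or sex for the other groups, and mention no infusion for the double knockout and the wild type. Genotype and infusion therefore cannot be told apart where an infused group is set against one that was not described as infused. A wild-type sample pooled about 2 to 4 mice, and no label states that replicates were different animals, so p-values cover only the variation among these samples, part or all of which may be technical. Gastrin and CCK are related peptide hormones, and gastrin drives acid secretion and growth of the fundic mucosa.

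Fibroblasts of the lamina propria secrete fibrillar collagens as procollagen, which the chaperone encoded by Serpinh1 helps to fold in the endoplasmic reticulum. Outside the cell, small proteoglycans such as biglycan and decorin bind the fibrils, and lysyl oxidases crosslink collagen and elastin. Collagen IV, laminin and nidogen form the basement membrane under the gastric glands and around vessels and smooth muscle cells.

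Promoter windows are shown for 4 members on which the results turn: Serpinh1, Bgn and Col5a1, which passed a test, and Sparc, which had the largest difference between the saline-infused knockout and the wild type. Each window is the 250 bases before the annotated start, 5′ to 3′ on the gene's strand, from RefSeq on GRCm38.p6. Capitals mark GGGCGG or its complement CCGCCC, the core of the GC box bound by Sp1. The windows lie at chr7:99353240-99353489 on the minus strand (Serpinh1), chrX:73483351-73483600 on the plus strand (Bgn), chr2:27886175-27886424 on the plus strand (Col5a1) and chr11:55420081-55420330 on the minus strand (Sparc).
Serpinh1: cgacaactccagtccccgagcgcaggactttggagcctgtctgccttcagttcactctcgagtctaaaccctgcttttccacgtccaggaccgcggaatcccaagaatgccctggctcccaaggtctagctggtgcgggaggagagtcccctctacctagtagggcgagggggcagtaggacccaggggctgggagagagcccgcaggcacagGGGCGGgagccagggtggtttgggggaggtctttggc
Bgn: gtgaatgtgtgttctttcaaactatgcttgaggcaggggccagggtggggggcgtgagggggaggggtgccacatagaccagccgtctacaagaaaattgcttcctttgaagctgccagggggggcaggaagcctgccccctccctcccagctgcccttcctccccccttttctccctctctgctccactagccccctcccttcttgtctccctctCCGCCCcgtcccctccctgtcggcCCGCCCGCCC
Col5a1: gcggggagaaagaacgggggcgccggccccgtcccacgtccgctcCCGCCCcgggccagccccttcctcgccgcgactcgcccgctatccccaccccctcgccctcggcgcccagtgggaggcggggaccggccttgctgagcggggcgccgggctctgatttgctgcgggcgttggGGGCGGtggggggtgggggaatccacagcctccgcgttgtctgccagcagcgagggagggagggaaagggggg
Sparc: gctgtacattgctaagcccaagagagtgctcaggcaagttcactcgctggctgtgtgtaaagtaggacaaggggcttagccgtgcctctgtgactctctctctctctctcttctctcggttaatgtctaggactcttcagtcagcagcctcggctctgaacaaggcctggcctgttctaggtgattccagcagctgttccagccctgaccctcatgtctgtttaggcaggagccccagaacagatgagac

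The GGGCGG core, searched on both strands, occurred 1 time in the Serpinh1 window, 3 times in Bgn (all as CCGCCC, with 2 of them overlapping) and 2 times in Col5a1. Sparc had 0 matches. None of the 4 windows held TATAAA or CCAAT on either strand. Over all 32851 windows of this length in the table, 32.7% held GGGCGG, 12.4% held TATAAA and 33.9% held CCAAT. The table held 28 windows for 23 of the 36 genes, and 15 of these held GGGCGG, 4 TATAAA and 10 CCAAT. The windows were GC-rich to different degrees, at 63.6% in Serpinh1, 64.4% in Bgn, 76.4% in Col5a1 and 54% in Sparc. These matches describe letters in a window and do not locate a bound factor.

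Array medians lay between 403 and 421, replicates correlated at r between 0.955 and 0.973 across probe sets on the log2 scale, and precision is limited by how few arrays there were. All 35 genes had a mean above the array noise level in every group. Their means over the 12 arrays lay between 142 and 4304, with a median of 827, and 24 of the 35 were at or above the median probe set (417). The Gapdh 3′ to 5′ signal ratio, a measure of RNA integrity, averaged 1.2 ± 0.0231 in gastrin-infused knockouts, 1.31 ± 0.0135 in the double knockout, 1.10 ± 0.0843 in the saline-infused knockout and 1.5 ± 0.508 in the wild type (SD, n = 3 each). The same ratio for Actb read 2.58, 2.59 and 2.55 in gastrin-infused knockouts and 2.18, 1.76 and 2.43 in the double knockout. It read 2.39, 2.04 and 2.11 in the saline-infused knockout and 2.89, 3.10 and 1.97 in the wild type. The part of RNA integrity in the matrix values was not tested.

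Several arrays stood apart from the others of their group in these genes. Array 3 of the saline-infused knockout was the highest of its group in 32 of 35 genes. Array 3 of the double knockout was the lowest of its group in 27 of 35 and the lowest of all 12 arrays in 21. In 22 of 35 genes gastrin-infused array 2 was the highest of its group, and in 13 it was the highest of all 12 arrays. Saline-infused array 2 was the lowest of its group in 23 of 35. Array 1 of the gastrin-infused knockout carried a strong smooth muscle signal. Myh11, the myosin heavy chain of smooth muscle, read 2483, 369 and 277 on the 3 gastrin-infused arrays, 188, 75 and 64 in the double knockout, 190, 55 and 251 in the saline-infused knockout, and 275, 256 and 191 in the wild type. Acta2, smooth muscle actin, read 14904, 5580 and 5610 in gastrin-infused knockouts, 5617, 3935 and 2974 in the double knockout, 3967, 3802 and 6097 in the saline-infused knockout, and 4775, 5314 and 4888 in the wild type. Array 1 of the gastrin-infused knockout was the highest of the 12 for both genes. The remaining 11 arrays read 55 to 369 for Myh11 and 2974 to 6097 for Acta2. The Myh11 values of 55 on saline-infused array 2 and 64 on double-knockout array 3 are under the noise levels of those arrays, 88.8 and 85.

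As a set, the matrix genes lay lower in both groups without gastrin than in the wild type, and near the wild type in knockouts given gastrin. The median of the 35 genes on an array, as a log2 value minus the wild-type mean, was -0.08, 0.21 and -0.03 in gastrin-infused knockouts, -0.52, -0.66 and -1.19 in the double knockout, and -0.64, -0.80 and -0.06 in the saline-infused knockout. The wild-type arrays, which define the zero, had -0.09, 0.05 and 0.05. All 3 double-knockout arrays and 2 of the 3 saline-infused arrays were below the lowest wild-type array, while array 3 of the saline-infused knockout fell among the wild-type arrays. In bulk tissue, fewer matrix-producing cells and less RNA per cell cannot be told apart.

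**Figure D1:**
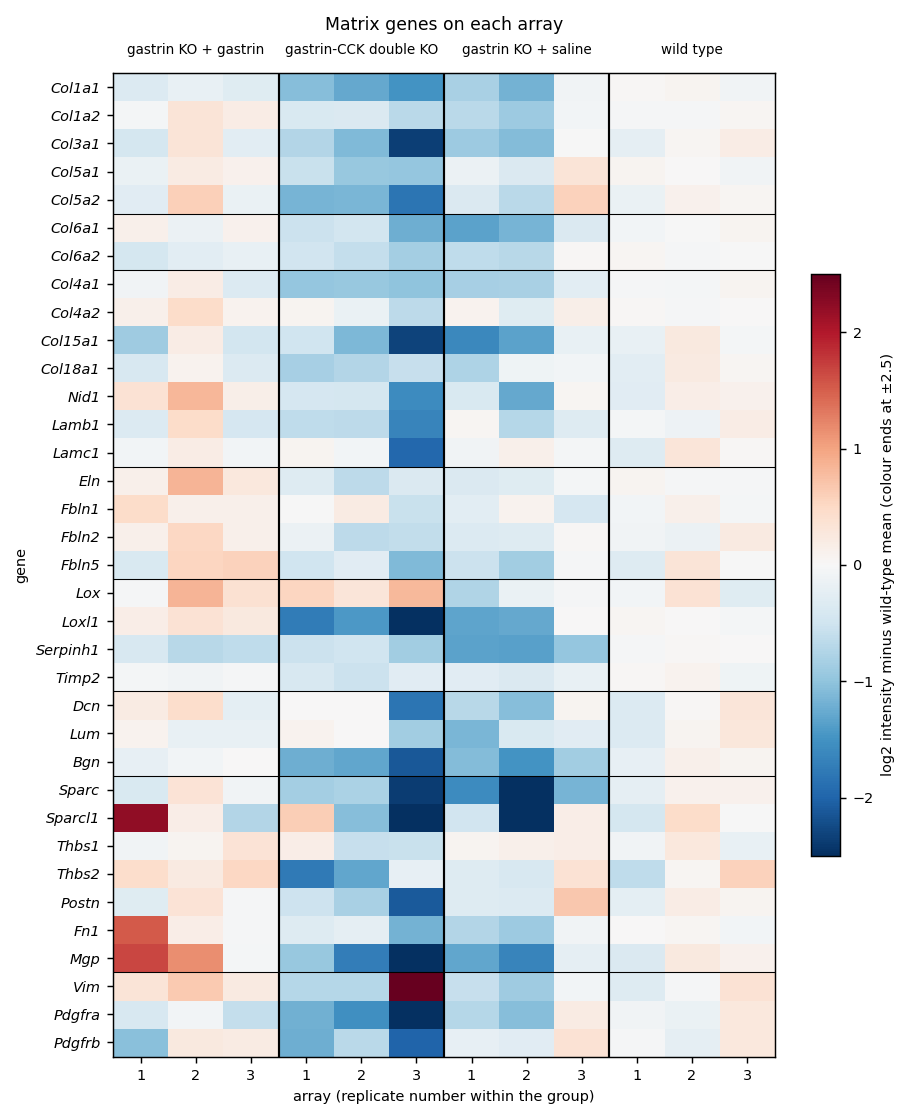
Log2 intensity minus the wild-type mean (colour scale, limited at both ends) of the 35 matrix genes (down the page, grouped by role) on each of the 12 arrays (across, grouped). Blue fills most of the double-knockout columns and saline-infused arrays 1 and 2, while saline-infused array 3 and the gastrin-infused arrays are close to white or red for most genes.

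In the double knockout, 3 collagen chains, the lysyl oxidase gene Loxl1, the proteoglycan gene Bgn, the collagen chaperone gene Serpinh1 and the protease inhibitor gene Timp2 fell against the wild type. With limma and adjustment over all 22626 probe sets, 7 of 35 genes fell, the collagen chains being Col1a1, Col4a1 and Col5a1, and 0 rose. That is 20% of the members, against 2.12% of all probe sets called lower in this comparison. In 23 of 35 (65.7%) every double-knockout array was under every wild-type array, against 12.9% of all probe sets. The median log2 difference of the 35 was -0.74, against 0 over all probe sets, and 33 of 35 differences were negative. The exceptions were Lox and Vim. In the same comparison 8 of 9 fundic epithelial markers fell. Of the 12 smooth muscle genes 0 passed, but 11 had negative differences, and in 7 (58.3%) every double-knockout array was under every wild-type array. Only Bgn remained called when wild-type array 1, 2 or 3 or double-knockout array 1 was left out, 3 genes were called without double-knockout array 2, and 2 without array 3. The median difference was -0.54 without that array 3.

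The saline-infused gastrin knockout also had lower matrix gene values than the wild type, and 1 gene passed. Serpinh1 fell, 1 of 35 genes (limma, adjusted p = 0.00898), against 1.37% of all probe sets called lower. The median log2 difference of the 35 was -0.51, against 0 over all probe sets, and 33 of 35 were negative. In 9 of 35 genes (25.7%) all saline-infused arrays were under all wild-type arrays, against 12.4% of all probe sets: Col1a2, Col6a1, Col4a1, Eln, Serpinh1, Timp2, Bgn, Sparc and Fn1. Without saline-infused array 3, which stood apart, 5 genes fell (Serpinh1, Col4a1, Col6a1, Col1a2 and Col1a1) and the median difference was -0.73. Without saline-infused array 2 the median difference was -0.31. The double knockout and the saline-infused knockout share the wild-type arrays in these comparisons.

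Matrix gene values of knockout mice lay higher with gastrin than with saline infusion, but 0 of 35 genes passed in limma. At the same adjusted threshold 0.773% of all probe sets were called higher. The median log2 difference of the 35 was 0.54, against 0 over all probe sets, and 32 of 35 were positive. In 15 of 35 genes (42.9%) every gastrin-infused array was above every saline-infused array, against 10.5% of all probe sets. Without saline-infused array 3, 1 gene rose (Col1a2). Without gastrin-infused array 1, the array with the muscle signal, 0 genes passed and the median difference was 0.55. Over all fits that left out 1 array of this comparison, the median difference lay between 0.42 and 0.75. Markers of the forestomach, a squamous epithelium next to the fundus, had the opposite sign: 10 of 10 were lower with gastrin than with saline infusion (median -1.25), and 10 of 10 were higher in the saline-infused knockout than in the wild type (median 1.05). Their part in the matrix values was not tested.

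The gastrin-infused knockout was close to the wild type in these genes. In this comparison 0 of 35 passed in limma, and 0.11% of all probe sets were called in either direction. The median log2 difference was 0.04, with 20 positive and 15 negative. All gastrin-infused arrays were under all wild-type arrays in 3 genes, Col1a1, Col6a2 and Serpinh1, against 9.41% of all probe sets. They were above in 4 genes, Col4a2, Eln, Fbln1 and Loxl1, against 7.31%. Both shares, 8.57% and 11.4% of the members, are near those of all probe sets.

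The double knockout was set against the saline-infused knockout to see whether the genotypes without gastrin differed. Col5a1 fell and Serpinh1 rose in the double knockout, 1 of 35 genes each way, against 2.76% of all probe sets called lower and 3.22% called higher. Both counts are near those shares of all probe sets. The median log2 difference was -0.27, and 25 of 35 were negative. It was -0.43 without double-knockout array 1, -0.42 without saline-infused array 2 and -0.14 without saline-infused array 3. In the double knockout 7 of 35 genes (20%) had non-overlapping lower values, against 12.7% of all probe sets: Col5a1, Col5a2, Col4a1, Loxl1, Postn, Pdgfra and Pdgfrb. Lox and Serpinh1 (5.71% of the members) had non-overlapping higher values, a smaller share than the 13.5% of all probe sets. Neither call held up in every fit without 1 array: 0 of the 2 remained without saline-infused array 1 or double-knockout array 1 or 2, and 1 remained without saline-infused array 2 or 3 or double-knockout array 3.

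**Figure D2:**
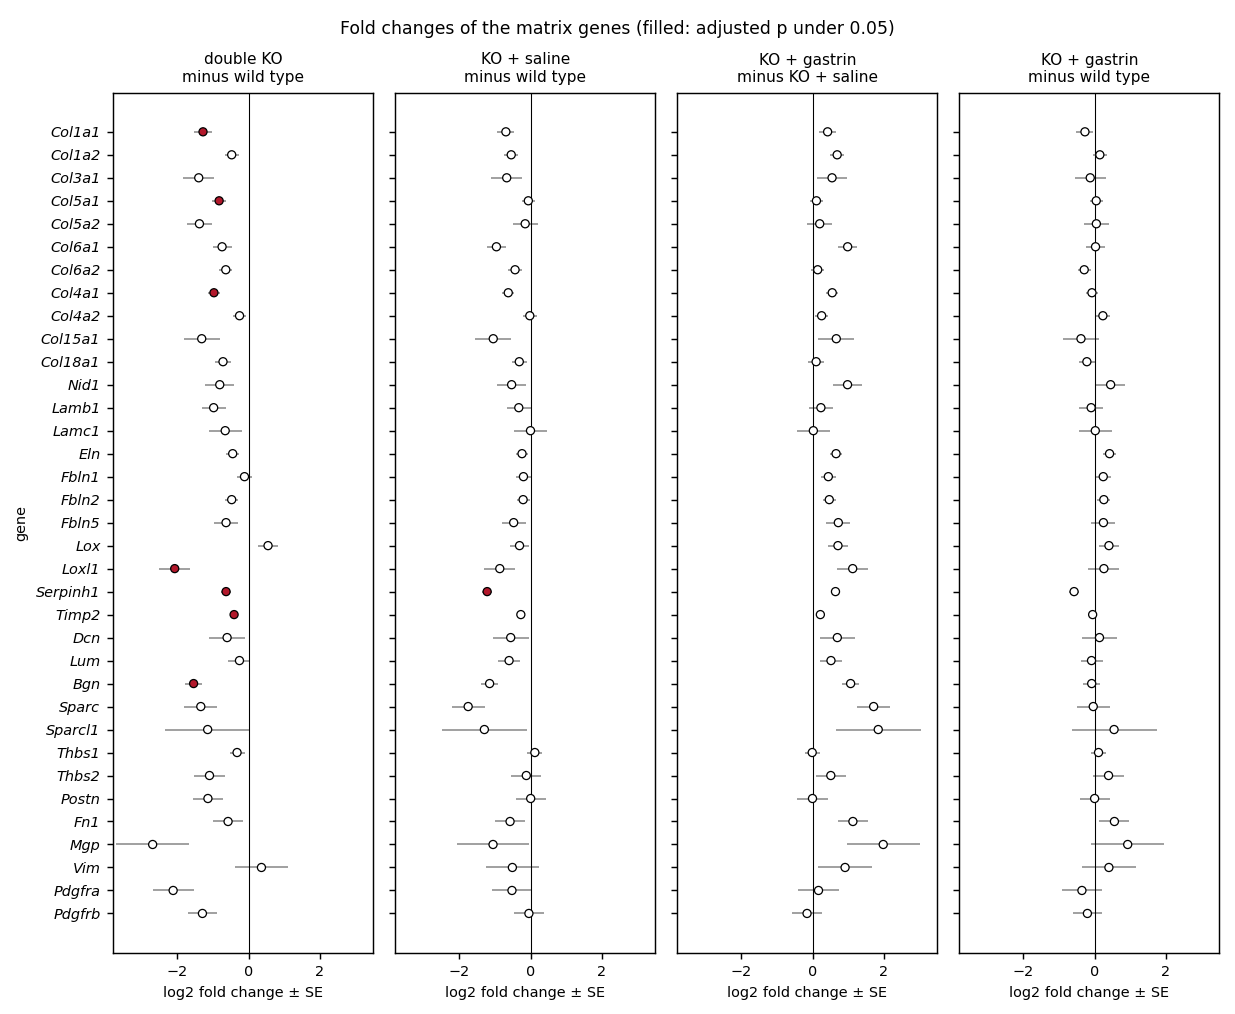
Log2 fold changes (points) with standard errors (lines) of the 35 matrix genes in 4 comparisons, with filled points where the adjusted p was under 0.05. In the panel of the double knockout against the wild type, 33 of 35 points lie left of zero and 7 are filled, and in the panel of gastrin against saline infusion 32 of 35 lie right of zero and 0 are filled.

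Serpinh1 encodes the collagen-specific chaperone, also called HSP47. It read 1152, 944 and 979 in gastrin-infused knockouts, 1053, 1080 and 839 in the double knockout, 605, 597 and 777 in the saline-infused knockout, and 1488, 1559 and 1527 in the wild type. All 9 knockout arrays were under the 3 wild-type arrays, and the saline-infused arrays were the lowest 3 of the 12. Against the wild type the log2 difference was -0.63 ± 0.13 (SE) in the double knockout (limma adjusted p = 0.0394) and -1.22 ± 0.13 in the saline-infused knockout (adjusted p = 0.00898). Gastrin-infused minus saline-infused was 0.64 ± 0.13 and did not pass (adjusted p = 0.059), although the groups did not overlap. Double knockout minus saline-infused knockout was 0.59 ± 0.13 (adjusted p = 0.0379). Gastrin-infused minus wild type was -0.58 ± 0.13 and did not pass (adjusted p = 0.19). The second Serpinh1 probe set read 781, 959 and 1000 in gastrin-infused knockouts, 1012, 784 and 743 in the double knockout, 636, 544 and 859 in the saline-infused knockout, and 1574, 1625 and 1374 in the wild type. It also fell in both gastrin-lacking groups, with log2 differences from the wild type of -0.86 in the double knockout (adjusted p = 0.0408) and -1.19 in the saline-infused knockout (adjusted p = 0.0209). On that probe set the double knockout and the saline-infused knockout overlapped, and their difference of 0.33 ± 0.19 did not pass (limma adjusted p = 0.356). Only the fall in the saline-infused knockout passed in every fit that left out 1 array, with a largest adjusted p of 0.0358.

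Loxl1, a lysyl oxidase needed for elastin crosslinking, read 519, 600 and 554 in gastrin-infused knockouts, 139, 171 and 57 in the double knockout, 186, 192 and 467 in the saline-infused knockout, and 479, 468 and 449 in the wild type. The double-knockout arrays were the lowest 3 of the 12, and saline-infused array 3 read as high as the wild type while arrays 1 and 2 read near the double knockout. Loxl1 fell in the double knockout with a log2 difference of -2.07 ± 0.44 (limma adjusted p = 0.0377), the largest difference among the 7 called genes. Its value of 57 on array 3 is under that array's noise level of 85, and without array 3 the difference was -1.59 and did not pass (adjusted p = 0.073). The difference was -0.86 ± 0.44 in the saline-infused knockout (adjusted p = 0.337). Lox, the founding lysyl oxidase, did not show these low values and read 517, 948 and 683 in gastrin-infused knockouts, 765, 645 and 921 in the double knockout, 313, 471 and 518 in the saline-infused knockout, and 502, 678 and 428 in the wild type. Its log2 difference in the double knockout was 0.55 ± 0.28 against the wild type (adjusted p = 0.326) and 0.86 ± 0.28 against the saline-infused knockout (adjusted p = 0.11), and neither passed. These values are from the brightest Lox probe set. Against the wild type, the next brightest differed by 0.47 in the double knockout and 0.17 in the saline-infused knockout. The dimmest, with a mean of only 42, differed by -0.36 and -1.40, and none of these passed. The difference between Lox and Loxl1 was not tested.

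Timp2, a secreted inhibitor of matrix metalloproteinases, had the smallest difference that passed among the members. It read 1246, 1206 and 1268 in gastrin-infused knockouts, 983, 884 and 1062 in the double knockout, 1056, 1008 and 1141 in the saline-infused knockout, and 1309, 1368 and 1198 in the wild type. Every array without gastrin was under every other array. Timp2 fell in the double knockout with a log2 difference of -0.41 ± 0.09 (limma adjusted p = 0.0379), and the saline-infused difference of -0.27 ± 0.09 did not pass (adjusted p = 0.145). The fall rests on 1 of 6 probe sets, because the other 5 did not pass. Of these 5, 1 read below 0 on every array and could not pass once raised to the floor. The next brightest differed by 0.05 in the double knockout, and the rest by -0.31, -2.04 and -0.27.

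**Figure D3:**
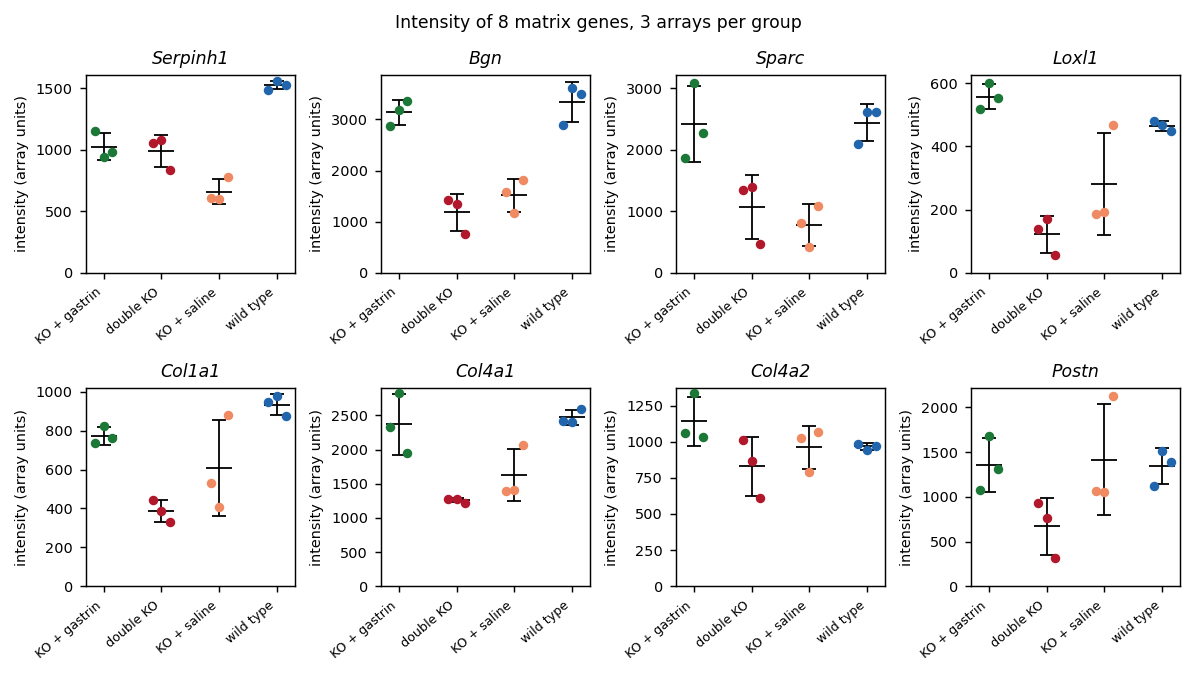
Intensity (vertical axes, linear from 0) of 8 matrix genes on the 3 arrays of each group (points), with the mean (long bar) and SD (short bars). Bgn and Sparc are low in both groups without gastrin, Loxl1 and Col1a1 are lowest in the double knockout with saline-infused array 3 near the wild type, and Col4a2 and Postn overlap between saline-infused knockout and wild type.

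The 5 fibrillar collagen chains form the load-bearing fibrils, with Col1a1 and Col1a2 making collagen I, Col3a1 collagen III, and Col5a1 and Col5a2 the regulatory collagen V. Of the chains, 2 fell in the double knockout, and in all 5 the double-knockout arrays lay under the wild-type arrays. Col1a1 read 735, 822 and 761 in gastrin-infused knockouts, 444, 386 and 332 in the double knockout, 531, 409 and 883 in the saline-infused knockout, and 948, 979 and 874 in the wild type. Its log2 difference was -1.28 ± 0.24 in the double knockout (limma adjusted p = 0.0259) and -0.69 ± 0.24 in the saline-infused knockout (adjusted p = 0.175). Saline-infused arrays 1 and 2 were under all wild-type arrays, and array 3 was within their range. Col5a1 read 800, 1040 and 967 in gastrin-infused knockouts, 615, 468 and 459 in the double knockout, 820, 699 and 1124 in the saline-infused knockout, and 950, 914 and 847 in the wild type. It fell in the double knockout against both the wild type (-0.83 ± 0.19, adjusted p = 0.0446) and the saline-infused knockout (-0.76 ± 0.19, adjusted p = 0.0466), whereas saline-infused minus wild type was -0.06 ± 0.19 (adjusted p = 0.914). The other probe sets of Col1a1 and Col5a1 differed in the same direction in the double knockout without passing.

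Col3a1, the chain of collagen III, varied widely within groups and read 4202, 7134 and 4698 in gastrin-infused knockouts, 3415, 2633 and 1109 in the double knockout, 3008, 2672 and 5642 in the saline-infused knockout, and 4840, 5888 and 6411 in the wild type. The double-knockout and wild-type arrays did not overlap, but the spread was wide and the log2 difference of -1.40 ± 0.43 did not pass (adjusted p = 0.113). Col5a2 read 790, 1448 and 859 in gastrin-infused knockouts, 430, 437 and 270 in the double knockout, 751, 600 and 1443 in the saline-infused knockout, and 853, 1043 and 1002 in the wild type, with a difference of -1.38 ± 0.35 in the double knockout (adjusted p = 0.0651). Col1a2, the partner of Col1a1, read 2016, 2609 and 2372 in gastrin-infused knockouts, 1607, 1630 and 1318 in the double knockout, 1319, 1122 and 2014 in the saline-infused knockout, and 2061, 2059 and 2175 in the wild type. All 6 arrays without gastrin were under the other 6, saline-infused array 3 by only 2 units. Its difference was -0.47 ± 0.20 in the double knockout (adjusted p = 0.232), and the gastrin-infused minus saline-infused difference was 0.69 ± 0.20 (adjusted p = 0.133).

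Collagen VI, a beaded-filament collagen near cells, was represented by the chains Col6a1 and Col6a2. Col6a1 read 1535, 1269 and 1519 in gastrin-infused knockouts, 967, 1026 and 606 in the double knockout, 557, 629 and 1094 in the saline-infused knockout, and 1342, 1409 and 1489 in the wild type. All 6 arrays without gastrin were under the other 6. The log2 difference from the wild type was -0.74 ± 0.27 in the double knockout (adjusted p = 0.167) and -0.96 ± 0.27 in the saline-infused knockout (adjusted p = 0.108), and gastrin minus saline infusion was 0.98 ± 0.27 (adjusted p = 0.113). Col6a2 read 1422 to 1712 in gastrin-infused knockouts, 1081 to 1391 in the double knockout, 1196 to 1979 in the saline-infused knockout and 1900 to 2003 in the wild type, and none of its differences passed.

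Of the 7 basement membrane genes, Col4a1 fell in the double knockout and the other 6 did not pass on their brightest probe set. Col4a1 read 2333, 2823 and 1945 in gastrin-infused knockouts, 1271, 1282 and 1224 in the double knockout, 1396, 1414 and 2068 in the saline-infused knockout, and 2420, 2400 and 2587 in the wild type. The double-knockout values lay close together and under all other arrays. The log2 difference was -0.97 ± 0.17 in the double knockout (limma adjusted p = 0.0199) and -0.63 ± 0.17 in the saline-infused knockout (adjusted p = 0.0988). Its second probe set differed by -0.71 ± 0.26 in the double knockout and did not pass (adjusted p = 0.177). Col4a2 encodes the other chain of the same collagen IV molecule, and the annotated starts of the Col4a1 and Col4a2 genes lie 21 bases apart on opposite strands. Col4a2 read 1058, 1337 and 1033 in gastrin-infused knockouts, 1011, 867 and 611 in the double knockout, 1024, 789 and 1070 in the saline-infused knockout, and 987, 943 and 973 in the wild type. The double knockout and the saline-infused knockout each overlapped the wild type, while all gastrin-infused arrays were above the wild type and the double knockout. The difference from the wild type was -0.25 ± 0.19 in the double knockout (adjusted p = 0.526) and -0.02 ± 0.19 in the saline-infused knockout (adjusted p = 0.991). The difference between Col4a1 and Col4a2 was not tested.

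The remaining 5 basement membrane genes were Col15a1, Col18a1, the linker protein nidogen (Nid1) and the laminin chains Lamb1 and Lamc1. Their log2 differences in the double knockout lay between -1.31 (Col15a1, adjusted p = 0.196) and -0.66 (Lamc1, adjusted p = 0.486). For Col18a1 the brightest probe set gave -0.72 ± 0.22 (adjusted p = 0.106), while its other probe set fell (-0.84 ± 0.19, limma adjusted p = 0.0468). Lamc1 read 854, 776 and 209 in the double knockout and 650, 1000 and 832 in the wild type, so array 3 alone was under the wild-type range. Nid1 read 455, 626 and 390 in gastrin-infused knockouts, all above the saline-infused knockout at 271, 146 and 366, with a log2 difference of 0.98 ± 0.40 that did not pass (adjusted p = 0.272).

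Elastin and the fibulins, which assemble elastic fibres, had no called gene in any comparison. Eln read 1084, 1776 and 1192 in gastrin-infused knockouts, 795, 625 and 769 in the double knockout, 773, 796 and 950 in the saline-infused knockout, and 1037, 962 and 966 in the wild type. On this probe set every gastrin-infused array was above every wild-type array, and every array without gastrin was below the wild type. The dimmer Eln probe set did not have that order, and its highest value, 369, was on double-knockout array 3. Its log2 differences from the wild type were 0.33 in the double knockout and 0.21 in the saline-infused knockout, and gastrin minus saline infusion was 0.26. None of these passed. For the brighter Eln probe set, gastrin minus saline infusion was 0.66 ± 0.18 (adjusted p = 0.115), and the double-knockout difference from the wild type was -0.44 ± 0.18 (adjusted p = 0.214). Fbln1, Fbln2 and Fbln5 had log2 differences between gastrin and saline infusion of 0.44, 0.47 and 0.72, and between the double knockout and the wild type of -0.11, -0.47 and -0.63, and none passed.

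Biglycan, encoded by Bgn, is a small leucine-rich proteoglycan that binds collagen I, and it fell in the double knockout on all 3 of its probe sets. The brightest read 2871, 3182 and 3358 in gastrin-infused knockouts, 1426, 1352 and 767 in the double knockout, 1573, 1172 and 1813 in the saline-infused knockout, and 2884, 3617 and 3501 in the wild type. The 6 arrays without gastrin and the 6 others did not overlap, the highest array without gastrin reading 1813 and the lowest of the others 2871. The log2 difference from the wild type was -1.54 ± 0.24 in the double knockout (limma adjusted p = 0.0146) and -1.15 ± 0.24 in the saline-infused knockout, which did not pass (adjusted p = 0.0512). Gastrin minus saline infusion was 1.07 ± 0.24 and did not pass (adjusted p = 0.0718). The other 2 probe sets also fell in the double knockout, with log2 differences of -1.99 (adjusted p = 0.0181) and -2.06 (adjusted p = 0.0222). The fall of the brightest probe set passed in every fit that left out 1 array, with a largest adjusted p of 0.0483.

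Decorin and lumican, of the same proteoglycan family, did not pass. Dcn read 1891, 2245 and 1390 in gastrin-infused knockouts, 1658, 1665 and 462 in the double knockout, 1023, 792 and 1724 in the saline-infused knockout, and 1304, 1676 and 2040 in the wild type. Double-knockout arrays 1 and 2 were inside the wild-type range, array 3 was below it, and the difference was -0.60 ± 0.50 (adjusted p = 0.567). Lum had differences of -0.25 ± 0.31 in the double knockout (adjusted p = 0.714) and -0.60 ± 0.31 in the saline-infused knockout (adjusted p = 0.342).

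Sparc encodes osteonectin, a collagen-binding glycoprotein, and had the largest log2 difference of the set in the saline-infused knockout. Sparc read 1874, 3091 and 2279 in gastrin-infused knockouts, 1340, 1401 and 471 in the double knockout, 817, 421 and 1092 in the saline-infused knockout, and 2093, 2615 and 2622 in the wild type. The 6 arrays without gastrin lay under the 6 others. Against the wild type the differences were -1.75 ± 0.46 in the saline-infused knockout (limma adjusted p = 0.094) and -1.34 ± 0.46 in the double knockout (adjusted p = 0.151). Gastrin against saline infusion gave 1.71 ± 0.46 (adjusted p = 0.112), and none of the 3 passed. The dimmer Sparc probe set read 1613, 2313 and 1864 in gastrin-infused knockouts, 708, 616 and 236 in the double knockout, 559, 525 and 1074 in the saline-infused knockout, and 1313, 2095 and 1932 in the wild type. That probe set fell in the double knockout (-1.90 ± 0.43, adjusted p = 0.0467).

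Gastrin-infused array 1, the array with the muscle signal, was the highest of the 12 for 5 genes: Fn1, Mgp, Sparcl1, Col6a1 and Fbln1. Fibronectin (Fn1) read 3165, 1227 and 1077 in gastrin-infused knockouts, 883, 940 and 482 in the double knockout, 659, 583 and 1038 in the saline-infused knockout, and 1111, 1132 and 1051 in the wild type. Gastrin-infused arrays 2 and 3 were still above all saline-infused arrays, and the log2 difference of 1.13 ± 0.42 did not pass (adjusted p = 0.232). Matrix Gla protein (Mgp), an inhibitor of calcification, read 2957, 2066 and 901 in gastrin-infused knockouts, 480, 282 and 22 in the double knockout, 377, 297 and 799 in the saline-infused knockout, and 728, 1101 and 1000 in the wild type. Mgp had the largest difference of any member in the double knockout, -2.69 ± 1.02, and did not pass (adjusted p = 0.187). Its value of 22 on double-knockout array 3 is under that array's noise, as was Sparcl1 there at 30. Sparcl1, a relative of Sparc, read 1097, 265 and 143 in the gastrin-infused knockout and 170, 20 and 266 in the saline-infused knockout, which overlap.

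Periostin (Postn), a matricellular protein of fibroblasts, had lower values in the double knockout than in the other 3 groups. Postn read 1075, 1681 and 1309 in gastrin-infused knockouts, 933, 762 and 312 in the double knockout, 1066, 1051 and 2129 in the saline-infused knockout, and 1125, 1518 and 1390 in the wild type. All double-knockout arrays lay under all arrays of the other groups, and the difference from the wild type of -1.14 ± 0.42 did not pass (adjusted p = 0.178). Saline-infused minus wild type was 0.00 ± 0.42. The thrombospondins, adhesive glycoproteins, were dim: Thbs1 read 161 to 303 and Thbs2 43 to 220 over the 12 arrays, and none of their differences passed. Thbs2 was under the noise on double-knockout arrays 1 and 2.

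The 3 mesenchymal cell proteins were vimentin and the receptors of platelet-derived growth factor. Pdgfra, a receptor of fibroblasts, read 330, 414 and 289 in gastrin-infused knockouts, 189, 150 and 36 in the double knockout, 266, 210 and 502 in the saline-infused knockout, and 409, 390 and 521 in the wild type. The double-knockout arrays were the lowest 3 of the 12, and the difference from the wild type was -2.12 ± 0.57, which did not pass (limma adjusted p = 0.0766). The second Pdgfra probe set gave -0.60 ± 0.24 (adjusted p = 0.21). Pdgfrb, a receptor of pericytes and fibroblasts, read 89, 130 and 52 in the double knockout and 203, 177 and 247 in the wild type (-1.29 ± 0.42, adjusted p = 0.125). On double-knockout array 3 the values of Pdgfra and Pdgfrb, 36 and 52, are under the noise level of 85. Vim, an intermediate filament of mesenchymal cells, read 1085, 1365 and 1010 in gastrin-infused knockouts, 526, 531 and 4956 in the double knockout, 582, 467 and 829 in the saline-infused knockout, and 689, 853 and 1110 in the wild type. Double-knockout arrays 1 and 2 were below the wild type, and array 3 was the highest of all 12. The other 2 Vim probe sets also had their highest value on that array, at 2029 and 5000. Vim and Lox were the 2 members above the wild-type mean on that array, and the other 33 were below it.

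In a count chosen after the values were seen, 7 of 35 genes (20%) had all 6 arrays of mice without gastrin, double knockout and saline-infused knockout together, under all 6 arrays of gastrin-infused knockout and wild type. They were Col1a2, Col6a1, Eln, Timp2, Bgn, Sparc and Fn1. Over all probe sets 1.45% had that order. The count uses the brightest probe set of each gene. Other probe sets had the same order for Bgn and Sparc but not for Col1a2, Eln, Timp2 and Fn1, and Col6a1 had no other. The genes in this count belong to 6 of the 8 roles described, so the pattern was not limited to the collagens.

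**Figure D4:**
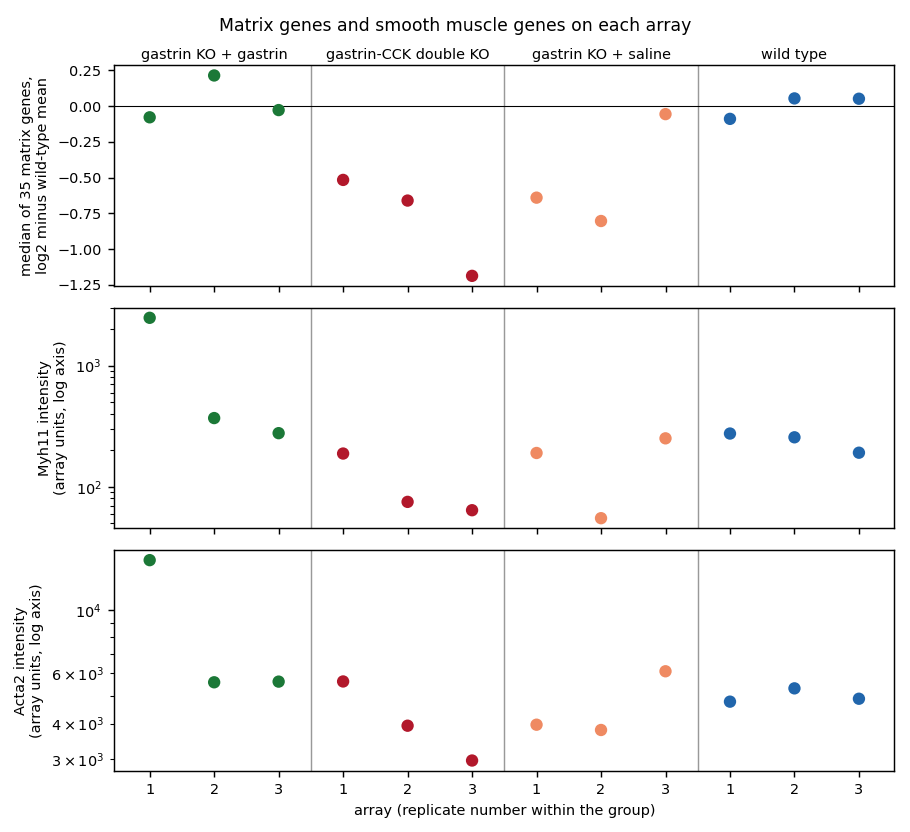
Median over the 35 matrix genes of the log2 intensity minus the wild-type mean (top), and the intensity of Myh11 (middle) and Acta2 (bottom) on log axes, on each of the 12 arrays by group. The 3 double-knockout arrays and saline-infused arrays 1 and 2 have the lowest matrix medians, and gastrin-infused array 1 is far above the rest in Myh11 and Acta2 while its matrix median of -0.08 is near the wild type.

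Smooth muscle genes moved with the matrix genes on some arrays. The 12 smooth muscle genes summed to 42670, 11075 and 9916 units in gastrin-infused knockouts, 10214, 7277 and 5977 in the double knockout, 7771, 6951 and 11896 in the saline-infused knockout, and 10087, 10478 and 10463 in the wild type. Within the double knockout and within the saline-infused knockout, the array with the highest muscle sum (arrays 1 and 3) also had the highest matrix median, while the matrix median of gastrin-infused array 1 (-0.08) lay within the wild-type range. Myh11 and Acta2 were both lowest on saline-infused array 2 and double-knockout arrays 2 and 3, the arrays with the 3 lowest matrix medians. Saline-infused array 1 was close to double-knockout array 2 in Acta2 (3967 against 3935) and in the matrix median (-0.64 against -0.66). On double-knockout array 1 the muscle sum of 10214 lay within the wild-type range, while its matrix median was -0.52. In limma 0 of 12 smooth muscle genes passed in any of the 5 comparisons, Cnn1 had -2.85 ± 1.21 in the double knockout (adjusted p = 0.235), and its double-knockout mean of 65.7 was within the noise there. The other 11 had means above the noise in every group. The median log2 difference of the 12 was -0.37 in the double knockout and -0.41 in the saline-infused knockout, each against the wild type, compared with -0.74 and -0.51 for the matrix genes. Between gastrin and saline infusion the muscle median was 0.72, with 11 of 12 positive, and the matrix median was 0.545. For the gastrin-infused knockout against the wild type the medians were 0.65 (muscle, 11 of 12 positive) and 0.04 (matrix). For the double knockout against the saline-infused knockout they were -0.22 and -0.27. How far muscle in the scraping contributes to the matrix values was not tested.

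Other cell types were read from fixed marker lists. Endothelial markers (10 genes, 2 within the noise) summed to 2926 to 3789 units in gastrin-infused knockouts, 2449 to 3220 in the double knockout, 2664 to 3375 in the saline-infused knockout and 3023 to 3405 in the wild type, and Eng fell in the double knockout (-0.74 ± 0.17, limma adjusted p = 0.0443). The 5 pericyte markers, with 1 within the noise, had 0 calls, and summed to 3125 to 5853 in gastrin-infused knockouts, 2054 to 2698 in the double knockout, 2239 to 3600 in the saline-infused knockout and 3038 to 3356 in the wild type. Fundic epithelial markers summed to 590443 to 636794 in gastrin-infused knockouts, 391660 to 407385 in the double knockout, 510282 to 579974 in the saline-infused knockout and 569584 to 670677 in the wild type, and 8 of 9 fell in the double knockout. The 10 forestomach markers summed to 12365 to 30772 in gastrin-infused knockouts, 13450 to 49648 in the double knockout, 25825 to 61539 in the saline-infused knockout and 20590 to 34283 in the wild type. Of these, Ly6d rose in the saline-infused knockout against the wild type (1.15 ± 0.24, adjusted p = 0.0484) and fell with gastrin against saline infusion (-1.63 ± 0.24, adjusted p = 0.0255), and Sprr1a fell in the double knockout against the saline-infused knockout. Fat markers had 0 calls, 2 of 3 mesothelial markers were within the noise, and the blood gene Hbb-b2 rose in both infused knockouts against the wild type. The part of endothelium, epithelium, fat and blood in the matrix values was not tested.

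Other genes of the matrix were counted from fixed lists. None of the 21 measured of 22 further collagen chains passed in any of the 5 comparisons, with medians of -0.07 in the saline-infused knockout and -0.03 in the double knockout, each against the wild type. Of 13 further basement membrane genes, Lama4, a laminin chain of vessels, fell in the double knockout against the saline-infused knockout (-0.77 ± 0.17, limma adjusted p = 0.0337). Of 28 further glycoproteins and proteoglycans, Vtn and Ccn3 fell in both gastrin-lacking groups against the wild type and rose with gastrin infusion. Vitronectin (Vtn), an adhesion protein, read 729, 624 and 468 in gastrin-infused knockouts, 296, 247 and 364 in the double knockout, 144, 210 and 111 in the saline-infused knockout, and 581, 702 and 763 in the wild type. Ccn3, a matricellular protein, read 684, 589 and 787 in gastrin-infused knockouts, 141, 234 and 155 in the double knockout, 196, 186 and 165 in the saline-infused knockout, and 493, 519 and 524 in the wild type. Of 14 collagen-processing enzymes, Loxl3 alone passed, lower in the double knockout than in the saline-infused knockout (-0.37 ± 0.07, adjusted p = 0.0178). Means were within the noise in 3 of the 21 collagen chains, 3 of the 13 basement membrane genes, 4 of the 28 glycoproteins and proteoglycans, and 1 of the 14 enzymes.

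The 35 genes had 33 other probe sets. Their difference had the same sign as that of the brightest probe set in 25 of 33 for the double knockout against the wild type and 25 of 33 for the saline-infused knockout against the wild type. In 23 of 33 it had the same sign for gastrin against saline infusion. Of the 33, 5 passed in the double knockout and 1 in the saline-infused knockout, both against the wild type, and 0 passed between gastrin and saline infusion.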

How the data were processed

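Total RNA from fundic mucosal scrapings was measured on 12 one-colour oligonucleotide arrays, 3 per group, after biotin labelling per the labels. The deposited table gives 1 linear intensity per probe set and array, in whole numbers, with 5.52% to 6.43% of values below 0. How the authors summarised and scaled the intensity values is not given in the sources used here. After 64 control probe sets were left out of 22690, values under 16 were raised to 16, and log2 was taken with no further scaling. Group means were fitted to all 12 arrays in limma 3.58.1 (R 4.3.3). Its 5 contrasts were adjusted by Benjamini-Hochberg over 22626 probe sets, and a gene was called at adjusted p under 0.05. The noise level was the lowest percentile of an array with the sign turned. Symbols came from the platform annotation (20380 probe sets with 1 symbol, 691 with several, 1555 unnamed). The fit was tested on simulated data. All members, and list genes past the test, could be named. The members and lists were chosen with earlier results of these data known. Alternatives were other scalings, floors and filters, the arrays of 1 comparison only, a replicate block, means over probe sets and leaving out each array.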

Additional observations from a re-analysis of the deposited data

How the results depend on the processing

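Every alternative kept the direction of the 10 called gene differences, and the median difference of the 35 genes moved by less than the spread between arrays (0.279) in all comparisons. Only Serpinh1 in the saline-infused knockout and Bgn in the double knockout passed in every fit that left out 1 array, and both missed the threshold when only the arrays of the comparison entered the fit (adjusted p = 0.0775 and 0.0981). Of the 165 differences not called, 51 changed direction and 21 passed in at least 1 alternative. For the saline-infused knockout against the wild type, 470 probe sets were called, against 744 with quantile normalization, 285 with median centring, 827 with the filter at the median intensity, 22 with only the arrays of the comparison, 239 with the replicate block and 254 with means over probe sets; 1 member was called, against 2 with quantile normalization, 5 with the filter, 2 with a floor of 64 and 0 with only its own arrays. For gastrin against saline infusion, 282 probe sets were called, against 590 with quantile normalization, 705 with the filter, 20 with only its own arrays and 140 with the block; 0 members were called, against 1 with quantile normalization and 6 with the filter. For the double knockout against the wild type, 936 were called, against 43 with only its own arrays and 317 with means over probe sets; 7 members were called, against 11 with the filter, 1 with only its own arrays, 2 with the block and 3 with means. For the double knockout against the saline-infused knockout, 1352 were called, against 208 with only its own arrays and 503 with means; 2 members were called, against 1 with median centring, 5 with the filter, 1 with a floor of 1, and 0 with only its own arrays, the block or means. For the gastrin-infused knockout against the wild type, 25 were called, against 51 with quantile normalization, 74 with the filter, 62 with a floor of 64, 3 with only its own arrays, 8 with the block and 11 with means. The filter tests fewer probe sets and leaves 24 members. Leaving out 1 array gave 94 to 285, 67 to 137, 323 to 613, 496 to 928 and 13 to 43 probe sets, and 1 to 5, 0 to 1, 1 to 3, 0 to 1 and 0 to 0 members, in that order. No pairing by replicate number was seen. Deviations of same-numbered arrays correlated at r between -0.357 and 0.506, over 0.1 in 5 of 18 pairs. Those of other-numbered arrays correlated at -0.38 to 0.424, over 0.1 in 14 of 36 pairs. The deviations are from means of only 3 arrays, so this check cannot settle whether samples were paired. The number of arrays, 3 a group, limits which differences could be resolved.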
